A study of Mus musculus with 6 samples.

Results

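Thick ascending limb cells were selected from mouse kidney as cells with at least 3 unique molecular identifiers (UMIs, barcodes that count each captured RNA molecule once) of Slc12a1, the NKCC2 sodium-potassium-chloride cotransporter. A cell also had to hold at most 1 UMI each of Slc12a3 (the thiazide-sensitive cotransporter of the distal convoluted tubule) and Aqp2 (the water channel of principal cells). No UMI of Ptprc (CD45, leukocytes) or Pecam1 (CD31, endothelium) was allowed. These 5 genes chose the cells, so their levels are descriptions. The rule found 405 cells among 24212 kidney cells that had 200 to 3000 genes and at most 50% of UMIs from mitochondrial genes. The whole series kept 41774 cells. These include mammary tumor cells of 10-week-old female MMTV-PyMT mice, digested by the same 3 procedures. Tumor cells were kept with 200 to 4000 genes and at most 25% of UMIs from mitochondrial genes.

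Kidneys of 12-week-old male C57BL/6 mice were minced to pieces of about 1 cubic millimetre and digested with type I collagenase, either by a conventional 60 min digestion with vortexing and pipetting (control) or in a microfluidic platform. The platform circulates enzyme over minced tissue in a digestion device, then passes the eluate through a dissociation and filter device, and cells were collected at a 15 min and at a 60 min interval. Dead cells were removed by SytoxBlue sorting before 10x Genomics v3 droplet loading, and the question was how platform processing changes the recovered cells and their stress genes. The study states that the conditions of a replicate shared tissue of 1 mouse and describes the intervals as successive collections. Each condition was 1 library, so no test between conditions was possible. All intervals below are 95% intervals that cover counting error only, not the spread between animals or preparations.

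The thick ascending limb lies between the thin limb of the loop of Henle and the distal convoluted tubule. Its cells take up salt from the urine through NKCC2, recycle potassium through the ROMK channel, and let chloride leave through basolateral channels that need the barttin subunit, while the sodium-potassium pump drives the process. Water does not follow, which dilutes the urine, and calcium and magnesium pass between the cells through claudin pores. The segment also secretes uromodulin, the most abundant protein of normal urine, and the precursor of epidermal growth factor. Immediate early genes encode transcription factors and feedback regulators that are transcribed within minutes of a stimulus, and they are known to be induced by tissue dissociation.

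Promoter sequences are shown for 5 genes whose levels differed at least 2-fold from the control, the immediate early genes Fos, Jun and Btg2 and the inducible heat shock genes Hspa1a and Hspb1. Each is the run of 250 bases that ends just before the start that RefSeq gives for the gene, written 5′ to 3′ on the gene's own strand, on the GRCm38.p6 build. Capitals mark motifs that were searched on both strands. The cAMP response element was searched as TGACGTCA. A shorter form of the same element was searched as TGACGT. The heat shock element was searched as GAANNTTC. The TATA box was searched as TATAAA. 
Fos, chr12:85473640-85473889, plus strand: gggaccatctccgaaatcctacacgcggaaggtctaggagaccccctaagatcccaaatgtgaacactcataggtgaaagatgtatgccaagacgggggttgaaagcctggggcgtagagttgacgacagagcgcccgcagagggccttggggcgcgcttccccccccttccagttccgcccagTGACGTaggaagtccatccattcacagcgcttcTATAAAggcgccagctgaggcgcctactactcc
Jun, chr4:95052223-95052472, minus strand: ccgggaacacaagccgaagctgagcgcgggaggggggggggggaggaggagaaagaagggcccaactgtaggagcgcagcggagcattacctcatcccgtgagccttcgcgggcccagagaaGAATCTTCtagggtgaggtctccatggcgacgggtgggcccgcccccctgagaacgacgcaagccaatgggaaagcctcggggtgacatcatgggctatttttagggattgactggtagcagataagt
Btg2, chr1:134079156-134079405, minus strand: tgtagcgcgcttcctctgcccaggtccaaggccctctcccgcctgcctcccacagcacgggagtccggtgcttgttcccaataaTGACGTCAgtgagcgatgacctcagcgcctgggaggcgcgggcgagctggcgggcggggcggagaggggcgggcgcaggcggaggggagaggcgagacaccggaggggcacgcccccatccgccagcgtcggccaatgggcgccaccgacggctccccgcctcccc
Hspa1a, chr17:34972157-34972406, minus strand: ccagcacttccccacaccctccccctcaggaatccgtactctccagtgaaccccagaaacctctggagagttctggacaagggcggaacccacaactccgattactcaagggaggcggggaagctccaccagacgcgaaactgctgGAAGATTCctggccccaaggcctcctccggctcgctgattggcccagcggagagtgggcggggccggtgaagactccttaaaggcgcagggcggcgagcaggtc
Hspb1, chr5:135887669-135887918, plus strand: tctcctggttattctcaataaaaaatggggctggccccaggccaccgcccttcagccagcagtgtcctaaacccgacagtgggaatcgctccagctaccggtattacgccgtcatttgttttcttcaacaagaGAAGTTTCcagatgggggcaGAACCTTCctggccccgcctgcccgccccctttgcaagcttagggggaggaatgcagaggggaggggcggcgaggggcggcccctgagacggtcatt

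The Fos promoter held TGACGT and TATAAA, and Btg2 held the full element TGACGTCA, which contains the shorter form, while the Jun window held the heat shock element. The full element was in 3 of the 20 immediate early genes with a promoter in the table (Btg2, Dusp1 and Maff), against 1.55% of 32851 promoters, and the shorter form in 5 of 20 against 6.47%. The AP-1 motif TGANTCA was in 0 of 20, against 6.75% of all promoters. The heat shock element was in the promoters of 6 of 10 heat shock genes, Hspa1a, Hspa1b, Hspb1, Dnaja1, Hspe1 and Hspd1, against 6.69% of all promoters, and Hspb1 held it at 2 places. The Hspa1a and Hspa1b windows differed at 3 of 250 bases, and reads of these paralogs can be shared, so their separate counts are uncertain. A listed gene was counted if any of its promoters held the motif, while the share over all promoters counts each promoter singly. Genes with several promoters thus had more chances of a match. These letter matches are descriptions and not binding sites.

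The cells were rarest in the 15 min library and most frequent in the 60 min platform library. They made up 73 of 5886 control cells (1.24%, exact binomial interval 0.973 to 1.56%), 66 of 8390 cells in the 15 min library (0.787%, 0.609 to 1.00%) and 266 of 9936 cells at 60 min (2.68%, 2.37 to 3.01%). The 15 min share was 0.634 times the control (interval 0.448 to 0.897), a difference of -0.454 percentage points (-0.812 to -0.123). The 60 min share was 2.16 times the control (1.66 to 2.84), higher by 1.44 points (1.00 to 1.86). With a mitochondrial limit of 25% in place of 50%, which left 35, 13 and 81 cells, the ratios were 0.330 at 15 min and 1.43 at 60 min, the latter with an interval from 0.951 to 2.19.

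Shares of a library depend on every other cell in it. Cells gated on Slc34a1, the phosphate transporter of the proximal tubule, made up 42.7% of the control, 83.5% at 15 min and 25.7% at 60 min. Set only against the other distal segments, gated in the same way on Slc12a3 or Aqp2, thick ascending limb cells were 33.3% of the sum in the control (27.1 to 39.999%), 64.1% in the 15 min library (54.0 to 73.3%) and 50.7% at 60 min (46.3 to 55.0%). In this comparison the order of the libraries changed, and the 15 min library held the highest share. The distal convoluted tubule gate followed the same order of libraries as the thick ascending limb, at 0.731, 0.358 and 1.26% of kept cells. The principal cell gate was at 1.75, 0.0834 and 1.35%, with only 7 cells at 15 min.

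**Figure D1:**
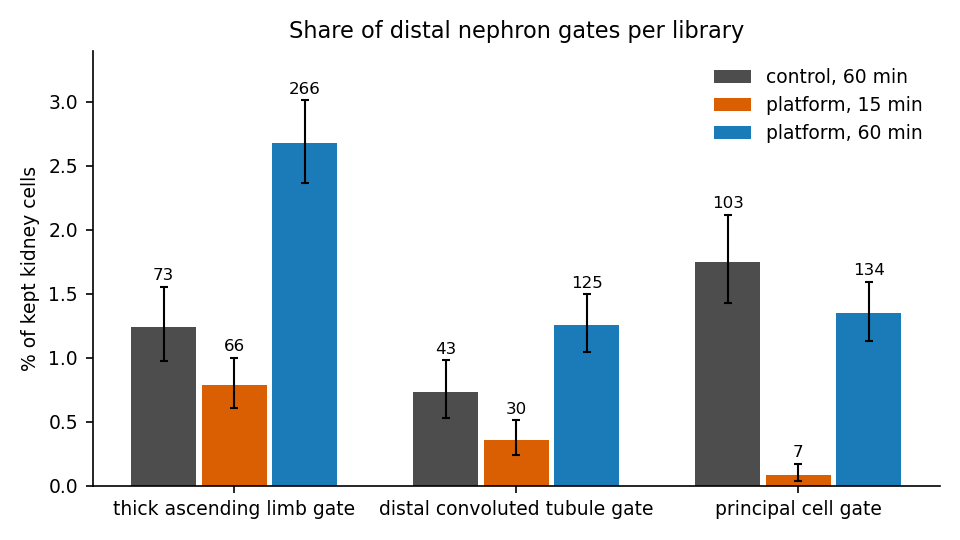
Share of the thick ascending limb, distal convoluted tubule and principal cell gates among kept kidney cells, in percent, with 1 bar per library, the number of cells above it and error bars for exact 95% binomial intervals (counting error only). Thick ascending limb cells sit at 1.24% in the control, 0.787% in the 15 min library and 2.68% at 60 min, and the principal cell gate is at 0.0834% at 15 min.

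The limits on cell quality bore on the number of cells. The gene rule was met by 832 deposited kidney cells, of which 315 were over the mitochondrial limit and 117 over 3000 genes. Among kept cells with 3 or more UMIs of Slc12a1, which numbered 515, Ptprc removed 46 and Pecam1 removed 48, in each case 42 of them from the 60 min library. The selected cells had a median mitochondrial share of 26.9% in the control, 35.8% in the 15 min library and 33.0% at 60 min, compared with 7.38, 20.4 and 8.59% of all kept cells. Their median depth was 3604 UMIs and 1339 genes in the control, 6267.5 UMIs and 1762 genes in the 15 min library, and 4450 UMIs and 1363 genes at 60 min. The selected cells held 335932, 415890 and 1336334 UMIs in all, so the 60 min values carry the narrowest intervals. No barcode was shared between selected cells of different libraries, and 19 to 44 were shared between pairs of libraries among all kept cells.

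Marker genes that the rule did not use were those of the thick ascending limb. Levels are given as CPM, the UMIs of a gene summed over the selected cells of a library and scaled to a total of 1000000 UMIs of those cells. Since 1 UMI stands for 1 captured 3′ end, CPM needs no division by transcript length. Umod, which encodes uromodulin, was at 11946 CPM in the control, 11364 in the 15 min library and 13441 at 60 min, and in all other kept kidney cells at 45.1, 14.4 and 148 CPM. Egf, the growth factor precursor, was at 2837, 2308 and 3635 CPM, and Wfdc15b, which encodes a secreted protein with a whey acidic protein domain, at 3551, 3152 and 3235 CPM. After thinning each cell to 1000 UMIs, Umod was found in 97.2% of control cells and 98.5% of 15 min cells. In the distal convoluted tubule gate Umod was also present, at 2314, 2277 and 1260 CPM, while the proximal tubule gate held 6.41, 2.33 and 22.3 CPM. Slc12a1 itself was at 3897, 4359 and 4528 CPM.

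At the edge of the rule, 38 cells had exactly 3 UMIs of Slc12a1, with 3963 CPM of Umod and 547 CPM of Egf. The 62 cells just outside, with 2 UMIs and all other limits met, had 2162 CPM of Umod and 289 CPM of Egf, and the proximal tubule gene Kap was at 33139 CPM in them against 7774 CPM in the 38 cells. Selected cells with 4 or more UMIs had 13380 CPM of Umod, and cells with no Slc12a1 UMI had 14.0 CPM. None of the 17562 kept mammary tumor cells of the series met the rule, which allows a share of up to 0.0171%, and they held 0 UMIs of Slc12a1.

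Of the secreted product and salt transport genes tested, only Slc9a3 and Bsnd differed at least 2-fold from the control. Differences are called here when the ratio to the control was at least 2 in either direction and its exact interval excluded 1, among 2191 genes with a mean of at least 50 CPM. None of the 6 secreted genes tested was called. Among all genes tested, 2.6% were called higher and 2.97% lower at 15 min, and 1.83% and 0.913% at 60 min. A list this short can lack calls at such shares, so their absence is not read as stability. Spp1, which encodes osteopontin, was at 1622 CPM in the control, 1565 in the 15 min library and 1695 at 60 min, and Wfdc2 at 831, 822 and 968 CPM. Umod stood at 0.951 times the control at 15 min and 1.13 times at 60 min, and Egf at 0.814 and 1.28 times. For both genes the direction at 15 min depended on which cells were kept, since without an upper gene limit the ratios were 1.39 for Umod and 1.45 for Egf, and with the 25% mitochondrial limit they were 0.803 and 2.01.

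Of 10 salt transport genes tested, 1 was at least 2-fold higher at 15 min and 2 at 60 min, and none was lower. For all genes tested, 2.6% were called higher at 15 min and 1.83% at 60 min. Slc9a3, the sodium-proton exchanger NHE3 of the apical membrane, was at 41.7 CPM in the control, 86.6 in the 15 min library (ratio 2.08, interval 1.09 to 4.17) and 107 at 60 min (2.57, 1.48 to 4.82). Bsnd, the barttin subunit, was at 29.8, 48.1 and 74.1 CPM, a ratio of 2.49 at 60 min (1.30 to 5.35). Both genes were low, and the control values rested on 14 UMIs of Slc9a3 and 10 UMIs of Bsnd. Of 13 alternative choices of cells or scale, Slc9a3 was called in 8 at 15 min (lowest ratio 1.12) and in 9 at 60 min (1.56), and Bsnd at 60 min in 11 (1.75).

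Fxyd2, the gamma subunit that modulates the sodium-potassium pump, was the most abundant transport gene and fell short of the 2-fold limit. Its level was 9814 CPM in the control, 7670 in the 15 min library and 5976 at 60 min, ratios of 0.782 and 0.609. The pump subunit Atp1b1 (3316, 3073 and 2949 CPM) was not called. Kcnj1, the ROMK channel, was at 333, 356 and 300 CPM. The sum of the transport genes other than Slc12a1 was 18429, 15810 and 14138 CPM, ratios of 0.858 (0.828 to 0.888) and 0.767 (0.745 to 0.790), and Fxyd2 carried most of this difference.

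**Figure D2:**
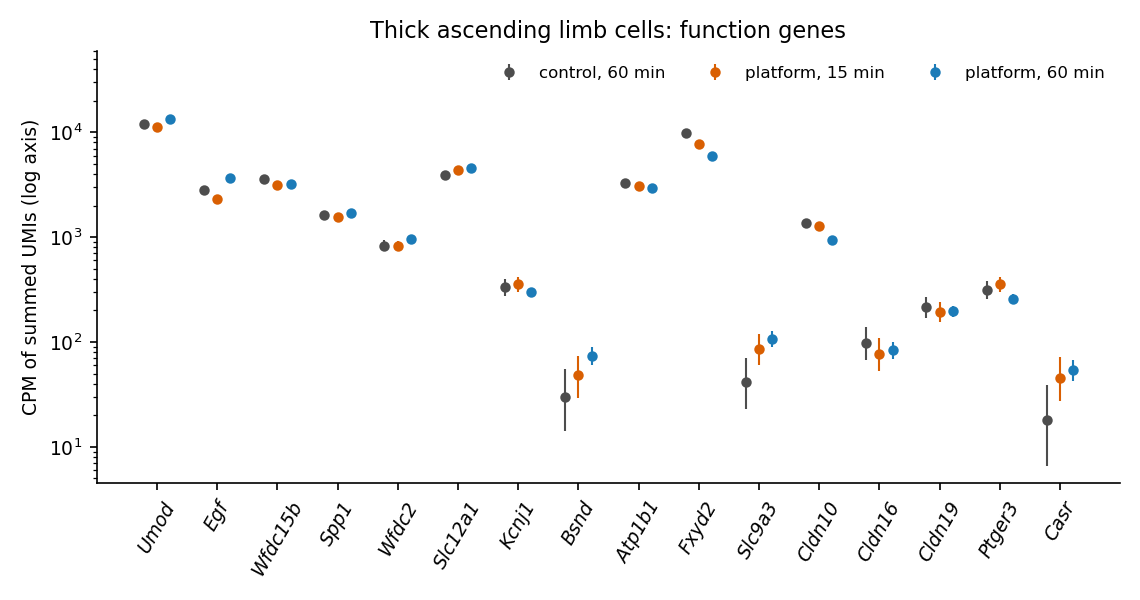
CPM of summed UMIs on a log axis for genes of thick ascending limb function, with 1 point per gene and library and exact 95% Poisson intervals (counting error only). Most triplets lie close together, while Fxyd2 steps down from 9814 to 5976 CPM and Slc9a3 and Bsnd are lowest in the control.

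No regulator of transport, tight junction gene or segment factor tested was called, although some lists differed in sum. The shares called among all genes tested were 2.6% higher and 2.97% lower at 15 min, and 1.83% and 0.913% at 60 min. Short lists can lack calls at such shares, so their absence is not read as stability. The regulators summed to 0.875 times the control at 15 min (0.805 to 0.951) and the tight junction list to 0.749 times at 60 min (0.683 to 0.821). None of the 9 regulators tested was called, among them Ptger3, the prostaglandin E2 receptor EP3 (316, 358 and 257 CPM), Wnk1, a kinase upstream of NKCC2 (259, 178 and 355 CPM), and Ppp1r1a, an inhibitor of protein phosphatase 1 (1640, 1433 and 1408 CPM). Casr, the calcium-sensing receptor, was below the expression limit at 17.9, 45.7 and 53.9 CPM. None of the 5 tight junction genes tested was called. Cldn10, which forms sodium-selective pores, was at 1360, 1272 and 940 CPM, Cldn16 at 98.2, 76.9 and 83.1 CPM, and Cldn19, which forms the calcium and magnesium pore with Cldn16, at 214, 195 and 198 CPM. Cldn14, which is induced by high calcium and blocks that pore, had no UMI in any library. The transcription factors Tfap2b (179, 180 and 174 CPM) and Pou3f3 (113, 84.2 and 144 CPM) did not pass either.

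Genes that mark the macula densa, the sensor plaque at the end of the segment, were almost absent. Nos1, Ptgs2, Pappa2 and Ptges had 0 UMIs in all 405 cells. Havcr1, the kidney injury molecule KIM-1, also had none, and none of the 3 injury genes above the expression limit was called (Krt8 at 86.3, 72.1 and 86.1 CPM). Of the osmotic genes, Slc5a3, the myo-inositol transporter, was at 524, 656 and 739 CPM, and Nfat5, the tonicity-responsive factor, at 50.6, 96.2 and 82.3 CPM, and neither was called. None of the 11 glycolysis genes and 15 citric acid cycle genes tested was called, with summed ratios of 0.855 and 0.826 at 15 min and 0.804 and 0.811 at 60 min. Over all genes tested, 2.6% were called higher and 2.97% lower at 15 min, and 1.83% and 0.913% at 60 min. The absence of calls in these short lists is therefore not read as stability.

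Immediate early genes were lower in the 15 min library than in the control. Of 24 genes on the list, 16 were above the expression limit, and 12 of these were at least 2-fold lower than the control at 15 min, compared with 2.97% of all genes tested. At 60 min none of the 16 was called in either direction, and the background for lower genes was 0.913%. The median log2 ratio over the 16 genes was -1.89 at 15 min and -0.01 at 60 min, and over all tested genes -0.18 and -0.17. Their summed level was 3801 CPM in the control, 1361 CPM in the 15 min library (ratio 0.358, 0.324 to 0.396) and 3706 CPM at 60 min (0.975, 0.917 to 1.04).

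The transcription factor Jun was at 432 CPM in the control, 69.7 in the 15 min library and 522 at 60 min, 6.19-fold lower at 15 min. Btg2, an antiproliferative gene, was at 414, 52.9 and 323 CPM, and Junb at 274, 79.3 and 274 CPM. Fos, the partner of Jun in the AP-1 factor, was at 444, 135 and 474 CPM. The promoters of Fos, Jun and Btg2 are those shown above. Atf3, a stress-induced repressor, was at 161, 19.2 and 105 CPM, and Egr1, a zinc finger factor, at 170, 33.7 and 178 CPM. The feedback regulators Ier2 (146, 16.8 and 101 CPM), Zfp36 (116, 16.8 and 127 CPM), which promotes mRNA decay, and Socs3 (95.3, 4.81 and 59.9 CPM), an inhibitor of cytokine signalling, had the same order, with the 15 min library lowest. Socs3 rested on 2 UMIs at 15 min, with a ratio of 0.0505 and an interval from 0.00586 to 0.198.

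Ier3 (128, 52.9 and 97.3 CPM), Gadd45b (86.3, 21.6 and 46.4 CPM) and Fosb (56.6, 21.6 and 95.04 CPM) completed the 12 genes. The 4 genes not called were Jund (330, 250 and 379 CPM), Gadd45g (598, 356 and 471 CPM), Dusp1 (80.4, 69.7 and 98.8 CPM) and Klf6 (107, 108 and 106 CPM). Jund is a member of the Jun family that is expressed without stimulation.

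**Figure D3:**
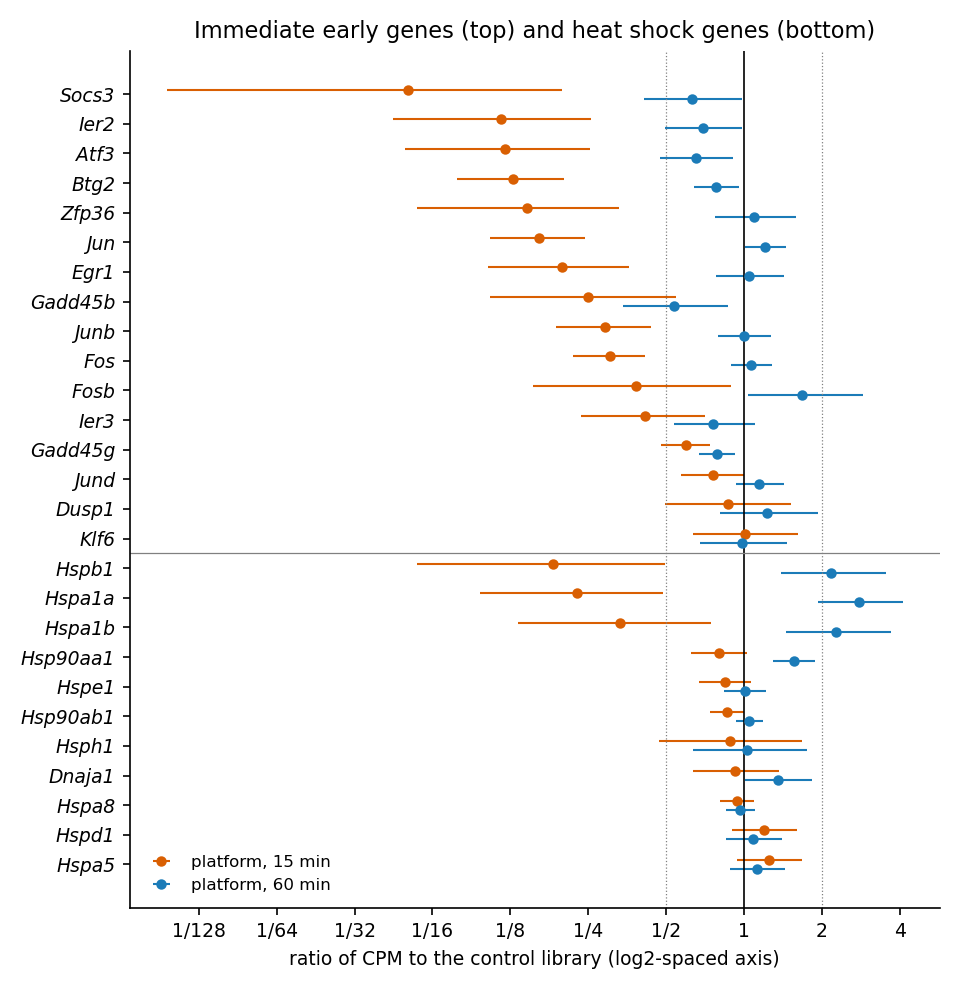
Ratio of CPM to the control library for immediate early genes (above the line) and heat shock genes (below it), on a log2-spaced axis, with orange for the 15 min and blue for the 60 min platform library and exact 95% intervals (counting error only). At 15 min 12 of the 16 immediate early genes lie beyond the dotted line at 1/2, while at 60 min all 16 lie between the dotted lines, and Hspb1, Hspa1a and Hspa1b lie on opposite sides of 1 at the 2 times.

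Few cells held most of these transcripts. Per cell, immediate early genes made up a median of 0.147% of UMIs in the control, 0.0821% in the 15 min library and 0.137% at 60 min. Cells with at least 1% numbered 4 of 73 in the control (5.48%, 1.51 to 13.4%), 1 of 66 in the 15 min library (1.52%, 0.0384 to 8.16%) and 23 of 266 at 60 min (8.65%, 5.56 to 12.7%), and these intervals overlap. The richest cell held 25.3% of all immediate early UMIs of the control, 28.3% at 15 min and 7.71% at 60 min. Without the richest cell of each library the summed ratios were 0.341 at 15 min and 1.18 at 60 min. For Fos, 80.4% of the 15 min UMIs lay in 1 cell, and without the cell of each library richest in Fos it was at 373, 26.9 and 395 CPM, a ratio of 0.0721. All 8 UMIs of Atf3 at 15 min lay in 1 cell.

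**Figure D4:**
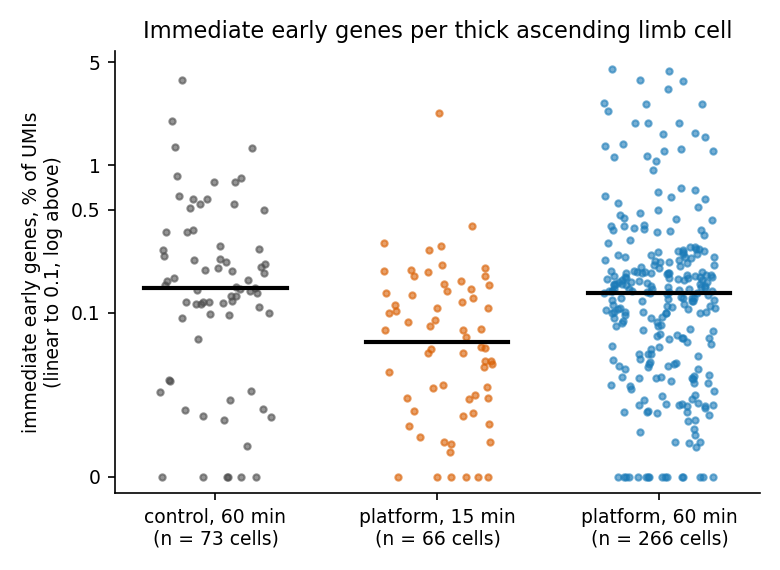
Immediate early genes as a percentage of the UMIs of each thick ascending limb cell, with 1 point per cell by library (linear axis to 0.1%, log above) and a line at the median. Medians are 0.147% in the control, 0.0821% in the 15 min library and 0.137% at 60 min, and 1 of 66 cells reaches 1% at 15 min against 4 of 73 and 23 of 266.

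The size of this difference depended on which cells were kept. With the mitochondrial limit at 25%, which left 13 cells at 15 min, the summed ratio at 15 min was 0.731 (0.633 to 0.842), and 7 of 19 immediate early genes tested were called lower. There Fos was at 1.43 times the control (0.965 to 2.11) and Fosb was called higher at 6.25 times (1.25 to 60.4). The summed ratio was 0.279 without cells that held 3 or more UMIs of another cell type's markers. Over 12 alternatives the number of immediate early genes called lower at 15 min ran from 7 to 13, and Jun, Btg2 and Zfp36 were called in each of these and without the richest cell of each library. At 60 min the ratio lay between 0.543, without an upper gene limit, and 1.47, with the rule applied to cells thinned to 1000 UMIs, so the control and the 60 min platform library had no stable order. The deeper 15 min cells did not hold more of these genes. After thinning, Fos was found in 22.2% of control cells and 4.62% of 15 min cells, and Jun in 22.2% and 9.23%. In the proximal tubule gate the summed ratios were 0.386 at 15 min and 2.002 at 60 min, in the distal convoluted tubule gate 1.04 and 0.838, and in the principal cell gate 2.56, with 7 cells of median 765 UMIs, and 0.832. Whether the gates differ could not be tested with 1 library per condition.

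Inducible heat shock genes were lower at 15 min and higher at 60 min, while constitutive chaperones differed less. Of 11 heat shock genes tested, 3 were called lower at 15 min and the same 3 were called higher at 60 min, against 2.97% and 1.83% of all genes tested. Hspa1a, an inducible HSP70, was at 95.3 CPM in the control, 21.6 in the 15 min library (ratio 0.227) and 264 at 60 min (2.77). Hspa1b, its near-identical paralog, was at 65.5, 21.6 and 148 CPM (0.330 and 2.26). Hspb1, the small heat shock protein HSP27, was at 65.5, 12.0 and 142 CPM (0.184 and 2.17), with 54.5% of its control UMIs and 42.6% of its 60 min UMIs in 1 cell each. Without the cell of each library richest in the gene, the ratios were 0.292 and 3.25 for Hspa1a, 0.346 and 3.103 for Hspa1b, and 0.322 and 2.68 for Hspb1. Without cells that held RNA of other cell types, the 60 min ratio was 1.52 for Hspa1a, 1.51 for Hspa1b and 0.446 for Hspb1, so the higher level at 60 min was then called for none of the 3 and Hspb1 was called lower. The lower level of Hspa1a at 15 min was called in all 13 alternatives. The constitutive Hspa8 was at 923, 868 and 893 CPM and Hsp90ab1 at 1000, 861 and 1047 CPM. Hsp90aa1, the inducible HSP90, was at 402, 322 and 626 CPM and not called. All heat shock genes summed to 3742, 3323 and 4454 CPM. In the proximal tubule gate Hspa1a was at 40.03, 5.93 and 267 CPM, the same order of libraries. In the other distal gates Hspa1a was highest in the 15 min library. It was at 161, 390 and 215 CPM in the distal convoluted tubule gate. In the principal cell gate, with 7 cells at 15 min, it was at 77.6, 450 and 128 CPM. Hspa1b (131, 22.3 and 121 CPM) and Hspb1 (50.2, 11.1 and 44.4 CPM) were lowest at 15 min in the distal convoluted tubule gate. In the principal cell gate both were highest at 15 min, at 112 and 225 CPM.

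Across all 2191 genes tested, 57 were called higher and 65 lower at 15 min, and 40 higher and 20 lower at 60 min. When mitochondrial UMIs were left out of the total, these counts were 128 and 82 at 15 min and 97 and 27 at 60 min, so the split between higher and lower depended on the scale. Many called genes rested on few cells, since 38 of the 57 and 28 of the 65 had more than 25% of their UMIs from 1 cell in some library. Of the 57 genes higher at 15 min, 37 were more abundant in other kidney cells than in the selected ones in both libraries, compared with 19 of the 65 lower genes. The same share over all 2191 genes was not counted, so neither number is read as high or low.

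Some genes called higher at 15 min exceeded the other kidney cells in the control or the 15 min library, with no cell holding over 25% of their UMIs. Most of those named here were low in the control, with Neat1 as the exception. Those under 50 CPM in the control passed the mean of 50 CPM through the platform libraries. Clmn was at 26.8 CPM in the control, 74.5 in the 15 min library and 71.8 at 60 min. Col4a3, a basement membrane collagen chain, was at 32.7, 72.1 and 83.1 CPM, and Huwe1, a ubiquitin ligase, at 29.8, 64.9 and 83.1 CPM. These 3 genes and Ptprd, a receptor tyrosine phosphatase (32.7, 69.7 and 69.6 CPM), were called at both times against the same control. The nuclear long noncoding RNA Neat1 was at 515, 1087 and 879 CPM and was called at 15 min. Malat1, another nuclear RNA, was at 18918, 33886 and 32704 CPM. Ankrd12, Top3b, Akap9, Emc3 and the lysosomal peptidase gene Tpp1 were also called higher at 15 min, with ratios between 2.09 and 2.42. Ankrd12, Emc3, Tpp1, Col4a3 and Huwe1 were below the other kidney cells in the control. They qualified through the 15 min library, where they are high, so their low control values are partly set by that filter.

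Other genes were also called lower at 15 min. Gadd45a, a growth arrest gene, and Tsc22d1 were called in all 13 alternatives. Gadd45a was at 110 CPM in the control, 36.1 in the 15 min library and 65.1 at 60 min, and Lad1, a basement membrane component, at 110, 36.1 and 71.8 CPM. Tsc22d1 was at 268, 111 and 175 CPM, and Atp2a2, the calcium pump of the endoplasmic reticulum, at 152, 64.9 and 103 CPM. Atf4, the effector of the integrated stress response, was at 92.3, 31.3 and 74.8 CPM, and Gna11, a G protein subunit, at 71.4, 26.4 and 65.9 CPM. Csnk2a1 (89.3, 31.3 and 55.4 CPM), the catalytic subunit of casein kinase 2, had the same order of libraries. For these 7 genes the 60 min platform value lay between the other libraries. Lad1, Atp2a2, Gna11 and Csnk2a1 were above the other kidney cells in the control and below them at 15 min. They qualified for naming through the control, where they are high, so their low 15 min values are partly set by that filter.

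At 60 min, Tanc1 was called higher at 32.7 CPM in the control, 38.5 in the 15 min library and 79.3 at 60 min. Tanc1 passed the mean of 50 CPM only through the 60 min library. Some genes called lower exceeded the other kidney cells in the control or the 60 min library and had at most 25% of UMIs from 1 cell. Of these, Nccrp1 had the smallest ratio, at 491, 394 and 214 CPM (ratio 0.436, 0.359 to 0.531). Mrpl57, a mitochondrial ribosomal protein gene (149, 81.8 and 72.6 CPM), and Copb1, a coatomer subunit (77.4, 52.9 and 36.7 CPM), were also called lower. Utp11, Itm2c, Ppp4r2 and Cnn3 had ratios between 0.440 and 0.494. Like Mrpl57 and Copb1, they were above the other kidney cells in the control and below them at 60 min. All of these qualified for naming through the control, where they are high, so their low 60 min values are partly set by that filter. Among genes called at 60 min and more abundant in other kidney cells was Pfdn2 (146, 76.9 and 69.6 CPM), a prefoldin subunit.

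Respiration genes were abundant, and 1 was called, while their sums differed from the control. The 13 mitochondrially encoded genes summed to 1.20 times the control at 15 min and 1.16 times at 60 min, and mt-Nd4l, a complex I subunit, was the only member called, at 2974, 2792 and 6963 CPM (ratio 2.34 at 60 min). Since the rule limits the mitochondrial share, these sums describe only cells under that limit. None of 76 nuclear respiratory chain genes and none of 77 ribosomal protein genes was called. For all genes tested, 2.6% were called higher and 2.97% lower at 15 min, and 1.83% and 0.913% at 60 min. The respiratory chain sums were 0.792 (0.779 to 0.805) and 0.842 (0.831 to 0.853) times the control at 15 and 60 min. The ribosomal protein sums were 0.826 and 0.886 times the control.

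RNA of other cell types was present in the selected cells and moved with the libraries. A list of 8 proximal tubule genes, led by Kap, summed to 4650 CPM in the control, 15317 in the 15 min library and 6074 at 60 min, and 6 of the 8 were called higher at 15 min and 2 at 60 min, against 2.6% and 1.83% of all genes tested. Kap was at 3376, 12075 and 3926 CPM, and Tmem27, a proximal tubule gene (149, 397 and 187 CPM), was also higher at 15 min. Cells with more than 2% of UMIs from the list numbered 3, 4 and 11. Cd74, an invariant chain gene of antigen-presenting cells, was at 50.6, 810 and 163 CPM, but 329 of its 337 UMIs at 15 min lay in 1 cell, which also held all 116 leukocyte list UMIs of that library. At 60 min Cd74 was found in 35.3% of the cells, close to 38.7% in the proximal tubule gate, which should lack it, at median depths of 4450 and 6504.5 UMIs, and a share no higher than that is not taken as expression by these cells. With the rule on thinned cells the ratio of Cd74 at 15 min was 0.604, and without cells holding RNA of other types it was called lower at 0.389. The class II genes H2-Ab1 (23.8, 252 and 72.6 CPM) and H2-Eb1 (26.8, 334 and 75.6 CPM) had the same order, with 97.1 and 100% of their 15 min UMIs in 1 cell. Endothelial list UMIs were found in 33 of 266 cells at 60 min, in 1 of 73 in the control and in 0 of 66 at 15 min. A single control cell held all 115 stromal list UMIs of its library, and Slc4a1, Aqp6, Slc14a2 and Col1a2 were at 0. Ptprc and Pecam1 were at 0 because the rule required it. The part of such cells in the comparisons was not tested beyond the values given without them.

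Within the thick ascending limb, Cldn10 and the pair Cldn16 and Cldn19 are known to be expressed by different cells, in a mosaic. Cldn10 alone was found in 121 cells (29.9%), Cldn16 or Cldn19 without Cldn10 in 66 (16.3%), both kinds in 182 (44.9%) and neither in 36 (8.89%). Cells with both were the deepest at a median of 5401 UMIs, against 3248 for Cldn10 alone and 4597 for Cldn16 or Cldn19 alone, and after thinning to 1000 UMIs both kinds were found together in 12.5% of control cells, 13.8% in the 15 min library and 8.76% at 60 min. The shares of the Cldn10 class were 26.0, 31.8 and 30.5% of the cells of the control, 15 min and 60 min libraries, and those of the Cldn16 or Cldn19 class 23.3% (14.2 to 34.6%), 12.1% (5.38 to 22.5%) and 15.4% (11.3 to 20.3%), with overlapping intervals. The classes were defined on these cells, so the values that follow are descriptions.

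Several genes outside the claudins had the same order between these classes in all 3 libraries. Foxq1, a forkhead transcription factor, was at 202, 180 and 188 CPM in cells with only Cldn16 or Cldn19 (control, 15 min and 60 min) and at 14.0, 0 and 0 CPM in cells with only Cldn10, where it rested on 1 UMI. Ptger3 had the opposite pattern, at 350, 350 and 244 CPM in Cldn10 cells and 72.3, 20.0 and 41.2 CPM in the others, 6.37-fold apart in the pooled cells (3.74 to 11.7). Irx3 followed Cldn16 and Cldn19 (77.1 against 19.1 CPM, pooled) and Irx1 followed Cldn10 (82.3 against 32.6 CPM), both homeobox factors of nephron patterning.

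Egf was at 5349, 4205 and 5789 CPM in cells with Cldn16 or Cldn19 and at 686, 1410 and 2906 CPM in Cldn10 cells, a pooled ratio of 2.42 (2.25 to 2.60). Umod differed less, at 15017 against 9551 CPM pooled, and Slc12a1 at 4717 against 3581 CPM. Kcnj16, a basolateral potassium channel subunit, was at 296 against 159 CPM and Slc9a3 at 133 against 70.8 CPM. Wfdc15b was nearly level at 2719 and 2986 CPM. Casr and Kcnj10 were higher with Cldn16 or Cldn19 in only 2 of 3 libraries. Kap was at 637 CPM in cells with Cldn16 or Cldn19 and 4469 CPM in Cldn10 cells, mainly from the 60 min library (6529 CPM in Cldn10 cells). When the classes were formed on thinned cells, Foxq1 (77.0, 225 and 75.7 against 12.7, 4.94 and 11.8 CPM) and Ptger3 (115, 0 and 129 against 469, 543 and 414 CPM) kept their order in all 3 libraries. The Foxq1 values with only Cldn16 or Cldn19 then rested on 4, 9 and 10 UMIs. Thinned cells with neither kind of claudin held 115, 8.34 and 86.1 CPM of Foxq1, above that class in the control and at 60 min.

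**Figure D5:**
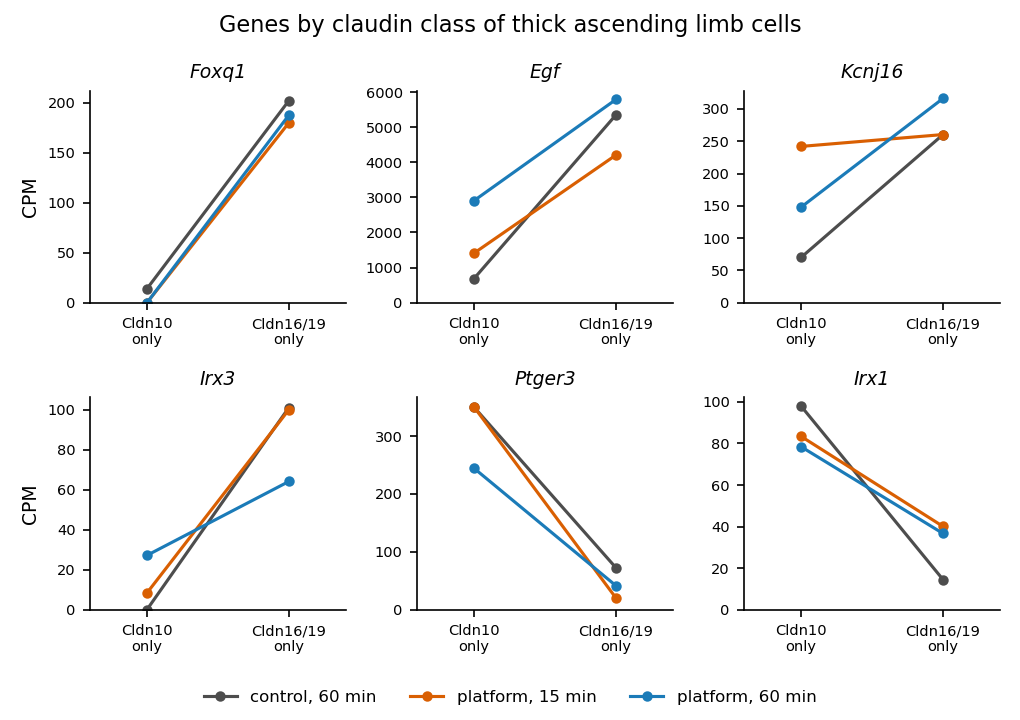
CPM of 6 genes in thick ascending limb cells with only Cldn10 and in those with only Cldn16 or Cldn19, with 1 line per library. Foxq1, Egf, Kcnj16 and Irx3 are higher with Cldn16 or Cldn19 in each library and Ptger3 and Irx1 are lower, and the 15 min class with only Cldn16 or Cldn19 holds 8 cells.

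Between single cells, Umod had a higher ratio of variance to mean than Slc12a1, but also a higher mean. At 1000 UMIs per cell, the variance of Umod was 9.27, 6.93 and 7.42 times its mean in the control, 15 min and 60 min libraries, and that of Slc12a1 2.79, 2.80 and 2.92 times. The median over 521 genes was 1.22, 1.13 and 1.19. Malat1 (64.5 to 71.4 times) and Kap (31.4 to 85.7 times) had the highest such ratios.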

How the data were processed

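Droplet RNA-seq counts of kidney cells were analysed, with 1 library per condition and groups taken from the sample labels. The authors aligned reads to mm10 with Cell Ranger 3.1.0, pooled the libraries with cellranger aggr (a step that thins reads to a common depth) and deposited raw UMI counts for 31053 genes before any filter. Depth is therefore partly equalised already, and members of a library were found through the barcode suffix. The gene and mitochondrial limits followed the study's methods, and doublets were treated only through the gene limit. Counts were summed per library over the selected cells and scaled to CPM. Shares carry exact binomial (Clopper-Pearson), counts exact Poisson, ratios exact conditional and differences of shares Newcombe 95% intervals. Where no cell was found, the bound printed is 3 counts over the total. Other segments were gated with at least 3 UMIs of Slc12a3, Aqp2 or Slc34a1 and the same kind of exclusions. Genes were named by size of ratio, up to 10 in each direction with at most 25% of UMIs from 1 cell in each library. These were higher in the selected cells than in other kidney cells in at least 1 of the 2 libraries compared. Up to 5 more were higher in other cells in both libraries, and the genes of the lists were added. The cells and gene lists were chosen with earlier results of these data known. The glycolysis gene Aldoa is carried by 2 rows of the matrix and was not used. Thinning drew 1000 UMIs per cell with a fixed seed. The steps were tested on simulated counts. Results for some genes are not reported here. Alternatives changed the limits on Slc12a1, genes, mitochondrial share and expression, the scale, and the cells kept. Python 3.11.15, numpy 2.4.6, scipy 1.17.1, pandas 2.3.3 and matplotlib 3.10.9 were used.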

Additional observations from a re-analysis of the deposited data

Results flagged for a closer look

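Of 116 list genes tested, 3 were called in opposite directions at the 2 platform times, each time against the same control library. The same count over all 2191 genes tested was not made, so this number is not read as high or low. Reads of Hspa1a and Hspa1b can be shared, so these are not independent genes. Hspa1a was at 0.227 times the control at 15 min and 2.77 times at 60 min, Hspa1b at 0.330 and 2.26 times, and Hspb1 at 0.184 and 2.17 times. With 1 library per condition the difference between the times was not tested, and without cells that held RNA of other cell types the higher 60 min values were not called, as given above.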

How the results depend on the processing

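No paired analysis was possible because each condition is 1 library, which leaves no second replicate to pair. Of 158 alternative values for the main comparisons, 86 stayed within the counting interval or within 1.5 times the count, 72 moved further and 0 reversed a called direction. A reversal could be scored only for the 60 min share and the summed immediate early genes at 15 min, the ratios past 2-fold. Among single called genes, Fosb at 15 min and Hspb1 at 60 min were called in the opposite direction in 1 alternative each. Cd74, H2-Ab1 and H2-Eb1 were so called in 1 or 2 at each time. Values below are ratios to the control or counts of called genes, and the causes were not tested. With Slc12a1 at 2 or more UMIs, 81 genes were called at 15 min, the ratios at 15 min were 1.06 for Umod and 0.920 for Egf, and at 60 min 1.07 for immediate early genes, 1.23 for Umod and 1.39 for Egf. With 5 or more, they were 0.843 and 0.692 for Umod and Egf at 15 min, and at 60 min 92 genes, 0.874 for immediate early, 0.793 for salt transport, 1.04 for Umod and 1.14 for Egf. With Slc12a3 and Aqp2 at 0, immediate early genes at 60 min were at 0.902. Without an upper gene limit, the 15 min values were 64 genes, 0.412 for immediate early, 0.916 for salt transport, 1.39 for Umod and 1.45 for Egf, and the 60 min ratios were 0.543, 0.798, 1.45 and 1.74 in the same order. With a mitochondrial limit of 25%, the share ratios were 0.330 and 1.43, 7 immediate early genes were called lower at 15 min, the 15 min values were 225 genes, 0.731, 0.674, 0.803 and 2.01 (same order), and the 60 min values were 129 genes, 1.17 for immediate early, 0.687 for salt transport and 2.26 for Egf. Without that limit (added after seeing the data), they were 65 genes, 0.998 for salt transport and 0.996 for Umod at 15 min, and 24 genes, 0.833 for immediate early and 0.796 for salt transport at 60 min. With the rule on thinned cells, Umod and Egf at 15 min were at 1.08 and 0.963, and at 60 min 113 genes were called with immediate early at 1.47 and salt transport at 0.689. Without mitochondrial UMIs in the total, 210 and 124 genes were called at 15 and 60 min, salt transport was at 0.928 and 0.816, and Umod at 1.03 and 1.20. With the mean of per-cell CPM, immediate early genes were at 0.411 and 1.04, Umod at 15 min at 1.04, and at 60 min salt transport at 0.737 and Egf at 1.39. Without cells over 2% proximal tubule RNA, salt transport was at 0.905 and 0.791, Umod at 1.06 and 1.19, and Egf at 0.935 and 1.38. A minimum mean of 25 CPM gave 288 and 195 called genes, of 100 CPM 41 and 17, and none 497 and 441. Added after seeing the data, leaving out cells with RNA of other types gave immediate early ratios of 0.279 and 0.857, and leaving out the richest cell of each library gave 1.18 at 60 min. Of the called genes that the naming rule or the immediate early, heat shock and transport lists covered, 0 of 19 higher and 6 of 28 lower at 15 min, and 2 of 17 higher and 0 of 12 lower at 60 min, were called in all 13 alternatives. Depth limits low genes most, since a control gene at 30 CPM rests on about 10 UMIs.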
